A study of Homo sapiens with 6 samples.

Results

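The EGF receptor family, its ligands, the receptor inhibitor ERRFI1 and the related receptor MET were examined in DU-145/tet-XISTshRNA cells. The group holds 10 genes chosen by name (EGFR, ERBB2, ERBB3, AREG, EREG, HBEGF, TGFA, BTC, ERRFI1 and MET), out of 25528 gene symbols in the expression table, and all 10 passed the minimum level for testing. DU-145 is a human castration-resistant prostate cancer cell line. The cells of both groups carried a lentiviral shRNA against the long noncoding RNA XIST that is switched on by doxycycline (DOX), and transduced cells had been selected with puromycin or geneticin. Vehicle (0.1% DMSO) was given to 3 samples and 500 ng/ml DOX to the other 3, both for 7 days. The paper names a stranded mRNA kit for the libraries. All samples of these data carry the XIST shRNA, so that effects of DOX itself and of silencing cannot be told apart. The samples are triplicate cultures, and p-values measure the spread between these cultures.

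EGFR, ERBB2 and ERBB3 are receptor tyrosine kinases at the cell surface. Ligands such as amphiregulin and epiregulin are made as membrane-bound precursors, are released by metalloproteases and bind EGFR, which then pairs with itself or with another family member and signals through RAS-ERK and PI3K-AKT. ERBB2 has no known ligand of its own, ERBB3 is nearly devoid of kinase activity, and in epithelial cancers cells often make the ligands for their own receptors.

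Values are given as scaled TPM, which is the deposited TPM (transcripts per 1000000 transcripts, a level per transcript length) divided by one factor per sample, the median of ratios over genes. The deposited TPM was scaled because 5 small RNAs made by RNA polymerase III held between 67.5% and 82.6% of it. Genes had a median log2 fold change of -0.35 on the deposited scale and 0.017 after scaling. How these small RNAs came to hold such a share in libraries described as mRNA was not tested. Recovered reads ran from 5453655 in vehicle replicate 3 to 64576387 in DOX replicate 1, and the members had from 68 reads (BTC in vehicle replicate 3) to 32710 reads (EGFR in DOX replicate 1). XIST was listed at 0 in all 6 samples, as was the translation factor gene EIF4A1, so silencing could not be checked from this table. The epithelial genes KRT8, KRT18, KRT19, EPCAM and CDH1 were present in every sample. KRT8 was at 78.4, 53.9 and 62.0 scaled TPM with vehicle and at 116, 90.6 and 80.6 with DOX, and KRT19 likewise was higher in every DOX sample (adjusted p = 0.0129 each in limma voom on the recovered reads with the replicate number as a block, and 0.148 and 0.237 after GC and length correction). EPCAM was lower in every DOX sample (79.1% of vehicle, adjusted p = 0.0626 in that fit), and KRT18 and CDH1 overlapped. The part of these differences in the results on the members was not tested. KLK3, a marker of androgen-responsive prostate cells, was listed at 0 throughout, and the blood gene PTPRC did not pass 0.0151 scaled TPM in any sample.

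Among the members, the receptor genes overlapped between vehicle and DOX, whereas AREG, EREG, BTC and ERRFI1 were lower in each of the 3 DOX samples than in any vehicle sample. Mean levels of these 4 genes with DOX were 68.0%, 66.7%, 68.6% and 74.5% of those with vehicle. The comparison by limma on log2(scaled TPM + 1) called 0 of the 10 members, and 0% of the 11595 genes tested, at an adjusted p under 0.05 and a fold change over 1.5. At an unadjusted p under 0.05 the same fit gave 899 genes lower and 941 higher, and 4 of the 10 members were lower against 7.75% of all genes. In voom on the recovered reads, with the replicate number as a block, AREG, EREG and ERRFI1 were lower at an adjusted p under 0.05, which is 3 of the 10 members against 7.73% of all genes. After correction for GC content and length in that fit, none of the 3 had an adjusted p under 0.05 (0.0599 for AREG, 0.220 for EREG and 0.155 for ERRFI1). Without that correction, 3 members were also lower without vehicle replicate 2 or DOX replicate 2, as were 1782 and 1781 of the 11595 genes. Without any 1 of the other 4 samples, 0 members passed as lower, and 0 to 3 of all genes did. With all samples kept and without that correction, no member was higher at that threshold, against 5.50% of all genes. No member passed both that threshold and the fold change of 1.5 as lower, against 2.10% of all genes. The median log2 fold change of the members was -0.087, beside 0.017 for all genes tested.

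Levels per transcript length set the order of the members in vehicle-treated cells. ERRFI1 (107 ± 4.41 scaled TPM, SD, n = 3) was highest and AREG (68.8 ± 1.19) followed. EREG (45.6 ± 7.45) and EGFR (45.5 ± 1.68) came next and did not differ beyond their spread. They were followed by MET (18.1 ± 1.22), ERBB2 (12.1 ± 0.746), TGFA (11.0 ± 1.11), HBEGF (7.93 ± 0.315), ERBB3 (4.66 ± 0.193) and BTC (3.25 ± 0.464), among which the values of ERBB2 and TGFA overlapped. With DOX, EGFR (43.5 ± 1.45 scaled TPM) stood above EREG (30.4 ± 4.71) and close to AREG (46.8 ± 3.66). Measured against all tested genes, the mean level of ERRFI1 over the 6 samples lay at the 97.0 percentile, that of EGFR at 92.0 and that of BTC at 21.6.

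**Figure D1:**
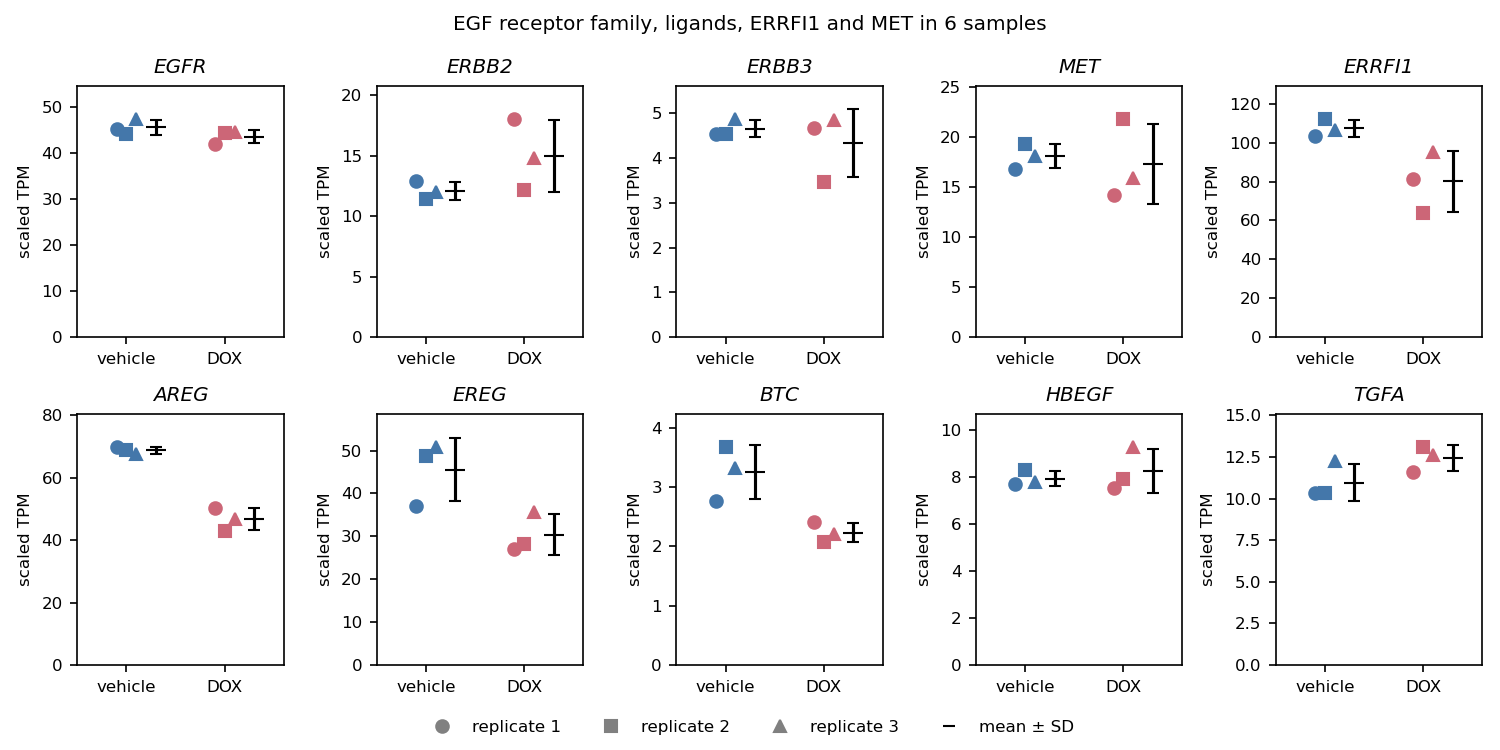
Scaled TPM (vertical axes, each from 0) of the 10 genes in the 3 vehicle (blue) and 3 DOX (red) samples. Symbols mark the replicate number and black bars the mean ± SD. The DOX points of AREG, EREG, BTC and ERRFI1 all lie below the vehicle points, and those of the other 6 genes overlap with them.

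AREG encodes amphiregulin and EREG encodes epiregulin, and with BTC, which encodes betacellulin, they lie near one another on chromosome 4 (GRCh38). EREG spans chr4:74365145-74388749 and AREG spans chr4:74445136-74455005, both on the plus strand and 56387 bases apart. BTC lies at chr4:74744759-74794523 on the minus strand, and the 3 genes fall within 429379 bases. Their proximal promoters are shown because these are the 3 ligands among the members with lower levels. The windows hold the 120 bases before the RefSeq start site (GRCh38.p14), at chr4:74445016-74445135 for AREG, chr4:74365025-74365144 for EREG and chr4:74794524-74794643 for BTC, each read 5′ to 3′ on the strand of its gene. Capitals mark a cAMP response element (TGACGTCA) or a TATA box (TATAAA).
AREG: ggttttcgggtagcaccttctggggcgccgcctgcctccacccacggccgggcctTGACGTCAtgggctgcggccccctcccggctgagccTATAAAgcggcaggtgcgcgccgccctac
EREG: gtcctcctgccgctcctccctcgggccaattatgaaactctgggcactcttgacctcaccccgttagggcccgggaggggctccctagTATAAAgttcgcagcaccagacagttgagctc
BTC: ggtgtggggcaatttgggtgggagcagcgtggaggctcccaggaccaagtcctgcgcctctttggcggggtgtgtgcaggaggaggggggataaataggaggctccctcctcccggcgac
AREG held the cAMP response element 65 bases and the TATA box 29 bases before the start, EREG held the TATA box 32 bases before the start, and BTC matched neither. Over all 35116 promoters with a window of the same length, 1.29% held TGACGTCA and 5.63% held TATAAA on either strand. The RefSeq table held promoters for 9 of the 10 members, and TATAAA was also present 36 bases before the second start site listed for EGFR. A match is a run of letters only, and binding was not measured.

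AREG, in the order of replicates 1 to 3 kept throughout, had 70.0, 68.8 and 67.7 scaled TPM with vehicle and 50.4, 43.1 and 46.9 with DOX. The vehicle samples lay within a narrow band and every DOX sample was well below it. The log2 fold change was -0.55 (SE 0.12, limma adjusted p = 0.268). In voom with the replicate block it was -0.56 with an adjusted p of 0.0131, and over the 22 alternatives the adjusted p of AREG ran from 6.21e-05 to 0.726. With any 1 sample left out, the log2 fold change on scaled TPM stayed between -0.61 and -0.49.

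EREG was at 37.1, 48.7 and 51.0 scaled TPM with vehicle, and at 27.1, 28.3 and 35.8 with DOX. The groups did not overlap, although vehicle replicate 1 and DOX replicate 3 came close to each other. Its log2 fold change was -0.57 (SE 0.16, limma adjusted p = 0.280), and -0.58 with an adjusted p of 0.0129 in voom with the block, within a range of 2.80e-06 to 0.726 over the alternatives. Its transcripts are poor in G and C (36.1% GC, against a median of 47.1% over tested genes), and correction for GC content and length in the limma fit brought the log2 fold change to -0.33. For AREG, with 45.3% GC, the same correction gave -0.61.

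BTC, the least abundant member, was at 2.76, 3.68 and 3.31 scaled TPM with vehicle and at 2.41, 2.08 and 2.21 with DOX. The DOX samples lay below the vehicle samples by a small margin, on 68 to 623 reads per sample. Its log2 fold change was -0.39 (SE 0.13, limma adjusted p = 0.281), on a scale that understates changes of genes this low. Voom with the block gave -0.49 (adjusted p = 0.0848, range over the alternatives 0.00147 to 0.726). In that fit the value was -0.74 without vehicle replicate 1 or DOX replicate 1 and -0.31 without either sample of replicate 2. On scaled TPM it ran from -0.48 to -0.32 with 1 sample left out, and after correction for GC content and length limma gave -0.25. The BTC transcript, like that of EREG, is poorer in G and C than the median.

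The genes in a window from 500000 bases before EREG to 500000 bases beyond BTC differed among themselves. MTHFD2L, which encodes a mitochondrial folate enzyme and lies before EREG in this window, had 3.81, 4.72 and 4.71 scaled TPM with vehicle. With DOX it had 3.19, 3.77 and 3.46 (log2 fold change -0.27, limma adjusted p = 0.330). The DOX samples of MTHFD2L lay just below those of vehicle. Its transcript has 36.4% GC, and after correction for GC content and length limma gave -0.072. CXCL2, a chemokine gene, was at 56.4, 19.6 and 62.9 scaled TPM with DOX against 62.4, 70.5 and 63.2 with vehicle, so that its low mean rested on DOX replicate 2. CXCL1 (log2 fold change -0.13), CXCL5 (-0.042), CXCL3 (-0.18) and PARM1 (0.12) had overlapping groups. LINC02562 overlapped as well and lay under the minimum level for testing. EPGN, which encodes a further EGF-type ligand between EREG and MTHFD2L, did not pass 0.189 scaled TPM. This window was chosen after the values of the ligands were known.

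HBEGF and TGFA, the remaining ligands, did not share the lower levels. HBEGF, which encodes heparin-binding EGF-like growth factor, was at 7.70, 8.29 and 7.80 scaled TPM with vehicle and at 7.52, 7.93 and 9.30 with DOX. Its groups overlapped, and the difference had a 95% confidence interval of -0.23 to 0.33 on the log2 scale (log2 fold change 0.046). The sign of HBEGF turned on the deposited TPM (-0.35), with correction for GC content and length (-0.077) and without DOX replicate 3 (-0.032). TGFA, which encodes transforming growth factor alpha, was at 10.3, 10.3 and 12.2 scaled TPM with vehicle and at 11.6, 13.1 and 12.6 with DOX. Vehicle replicate 3 lay among the DOX samples, and the log2 fold change of 0.17 had a 95% confidence interval of -0.11 to 0.45 (limma adjusted p = 0.485), turning to -0.24 on the deposited TPM.

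Summed over AREG, EREG, HBEGF, TGFA, BTC, EGF and EPGN, ligand transcripts came to 129, 141 and 143 scaled TPM with vehicle and to 99.9, 95.3 and 108 with DOX. The receptors EGFR, ERBB2, ERBB3 and ERBB4 together came to 62.3 ± 2.10 scaled TPM with vehicle and 62.8 ± 2.59 with DOX (SD, n = 3 each). Thus the ligand sums did not overlap between the groups, and the receptor sums did. The make-up of the ligand pool, which does not depend on scaling between samples, was dominated by AREG and EREG in both groups. AREG held 54.2%, 48.7% and 47.2% of the ligand transcripts with vehicle and 50.4%, 45.2% and 43.5% with DOX, and its groups overlapped. TGFA held 7.98%, 7.31% and 8.53% with vehicle and 11.6%, 13.8% and 11.7% with DOX. HBEGF held 5.75 ± 0.281% with vehicle and 8.15 ± 0.561% with DOX. The shares of TGFA and HBEGF were thus higher in every DOX sample, while their own levels overlapped between the groups, since shares of one pool move against each other.

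**Figure D2:**
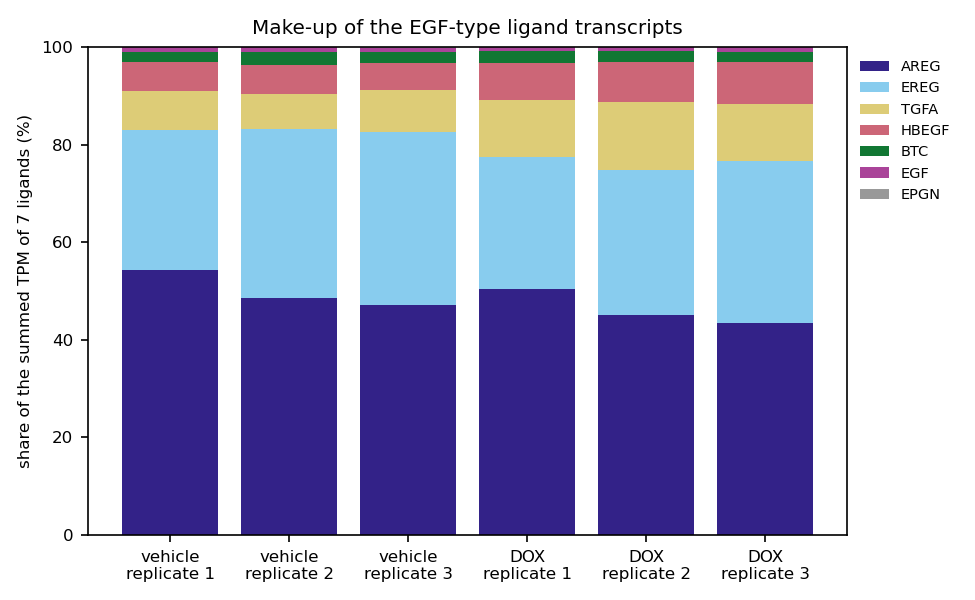
Stacked bars of the share (%, vertical axis) that each of 7 EGF-type ligands held in their summed TPM, for each of the 6 samples. AREG and EREG fill most of every bar, and the TGFA segment is 7.31% to 8.53% with vehicle and 11.6% to 13.8% with DOX.

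EGFR, the receptor for the ligands above, was at 45.1, 44.1 and 47.4 scaled TPM with vehicle and at 41.8, 44.2 and 44.4 with DOX. The groups overlapped within a few TPM. Limma gave a log2 fold change of -0.065 (95% confidence interval -0.31 to 0.18, adjusted p = 0.774), and 0.017 after correction for GC content and length. EGFR lies at chr7:55019017-55211628 on the plus strand.

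ERBB2 (chr17:39687914-39730426, plus strand), the partner receptor of the family, was at 12.9, 11.4 and 12.0 scaled TPM with vehicle and at 18.1, 12.2 and 14.8 with DOX. The highest DOX value was that of replicate 1, and DOX replicate 2 lay among the vehicle samples. By limma it was higher by a log2 fold change of 0.27 (95% confidence interval -0.065 to 0.61, adjusted p = 0.378), and 0.13 without DOX replicate 1 or 0.41 without DOX replicate 2. ERBB2 transcripts are rich in G and C (57.5%), and correction for GC content and length gave 0.11. In voom with the block the adjusted p was 0.0851. It ran from 0.000762 to 0.503 with 1 sample left out of that fit, and the lowest values came from the fits without a sample of replicate 2. On the deposited TPM the sign turned (-0.15).

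ERBB3 (chr12:56076799-56103505, plus strand), which binds neuregulins and couples to PI3K, was at 4.54, 4.55 and 4.88 scaled TPM with vehicle and at 4.68, 3.46 and 4.85 with DOX. Only DOX replicate 2 lay outside the range of vehicle. Its log2 fold change was -0.096 (95% confidence interval -0.41 to 0.22, limma adjusted p = 0.736), and 0.032 without DOX replicate 2.

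ERRFI1 (chr1:8004404-8026309, minus strand) encodes MIG6, an inhibitor that binds the kinase domain of active EGFR and is itself induced by receptor signaling. It was at 104, 112 and 106 scaled TPM with vehicle and at 81.2, 63.7 and 95.3 with DOX. The DOX samples were all below those of vehicle but spread widely, with replicate 2 lowest. For ERRFI1 the log2 fold change was -0.44 (SE 0.15, limma adjusted p = 0.281) and, with 1 sample left out, between -0.57 and -0.28, the latter without DOX replicate 2. Voom with the block gave -0.45 with an adjusted p of 0.0361, and the range over the alternatives was 0.000369 to 0.726. Correction for GC content and length gave -0.40, with a transcript of 43.5% GC.

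MET (chr7:116672196-116798377, plus strand), the receptor for hepatocyte growth factor, was at 16.8, 19.3 and 18.1 scaled TPM with vehicle and at 14.2, 21.8 and 15.9 with DOX. DOX replicate 2 was the highest of all samples and the other DOX samples the lowest. Between the groups the log2 fold change was -0.078 (95% confidence interval -0.43 to 0.28, limma adjusted p = 0.812), and it turned to 0.048 after correction for GC content and length and to 0.039 without DOX replicate 1.

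Ratios within a sample need no scaling between samples. The ratio of AREG to EGFR was 1.55, 1.56 and 1.43 with vehicle and 1.20, 0.974 and 1.06 with DOX. Every DOX ratio of AREG was below the vehicle ratios. Of the 9 ratios of a member to EGFR, those of AREG, EREG, BTC and ERRFI1 were lower and that of TGFA higher in all DOX samples. The exact permutation test (two-sided) gave p = 0.1 for each of these 5, the smallest value possible for 3 samples against 3, and 0.18 after Benjamini-Hochberg adjustment over the 9 ratios. These ratios were added after the values were known.

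Without overlap between the groups, 4 of the 10 members were lower with DOX, against 9.15% of all genes, and 0 were higher, against 10.9%. On the deposited TPM, limma called AREG (adjusted p = 0.0440), EREG (0.0479) and BTC (0.0498) as lower, 3 members against 2.98% of all genes. Their log2 fold changes there were -0.99, -1.0 and -0.72, beside the median of -0.35 given above. With the replicate block on that scale, ERRFI1 (log2 fold change -0.88) was called too, 4 members against 19.0% of all genes. At any fold change, 7 members had an adjusted p under 0.05 as lower there, against 34.0% of all genes. After correction for GC content and length in voom with the block, no member had an adjusted p under 0.05, and AREG came closest (log2 fold change -0.60, adjusted p = 0.0599). Only 5 genes lower and 2 higher passed in that fit.

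**Figure D3:**
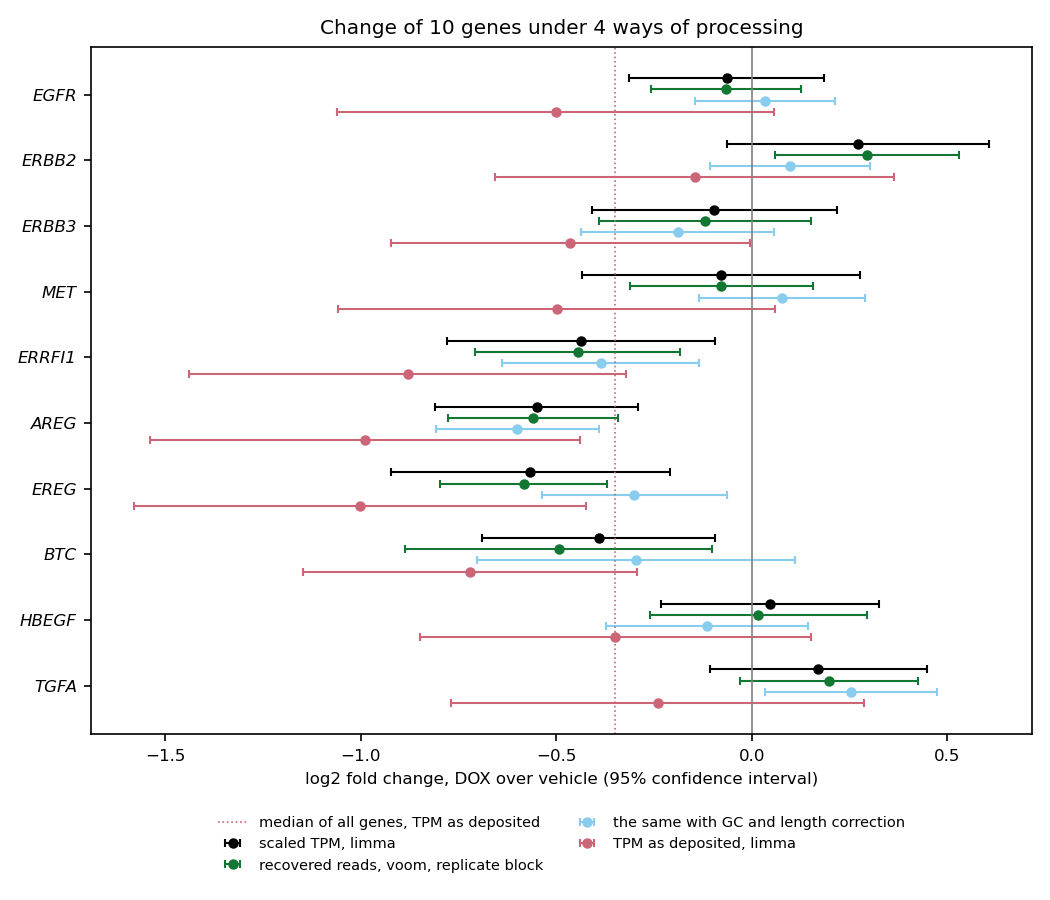
Log2 fold change of DOX over vehicle (horizontal axis, bars for 95% confidence intervals) of the 10 genes under 4 ways of processing, with a dotted line at the median of all genes on the deposited scale (-0.35). AREG, EREG and ERRFI1 stay below 0 in all 4, ERBB2, HBEGF and TGFA change side on the deposited scale, EGFR, MET and HBEGF change side after GC and length correction of the voom fit, and the interval of BTC reaches 0 after GC and length correction of the voom fit.

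Genes that act with the members were followed in 6 lists with 64 genes, of which 56 passed the minimum level. Their median log2 fold change was -0.11. Limma on scaled TPM called 0 of the 56. At an unadjusted p under 0.05, 12 were lower and 1 was higher, against 7.75% and 8.12% of all genes. In voom without the block, 0 of the 56 had an adjusted p under 0.05 in either direction. With the block, 12 were lower and 2 higher in voom at that adjusted p, against 7.73% and 5.50% of all genes. All DOX samples lay below those of vehicle for 11 and above them for 4, against 9.15% and 10.9% of all genes. After correction for GC content and length in that fit, 0 passed, and the median moved to -0.037 when the limma fit was corrected.

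Of the other ligands and the receptor ERBB4, EGF, the founding ligand of the family, was at 1.24, 1.57 and 1.34 scaled TPM with vehicle and at 0.896, 0.760 and 1.13 with DOX. Every DOX sample of EGF lay below those of vehicle. Its log2 fold change was -0.31 (limma adjusted p = 0.309) and -0.62 in voom with the block (adjusted p = 0.0524). EGF stands in a list of lower genes that the study drew partly from these samples, so its direction is no independent evidence. NRG4, a ligand of ERBB4, had 3.05, 3.51 and 3.06 scaled TPM with vehicle and 1.88, 2.56 and 3.07 with DOX (log2 fold change -0.28, limma adjusted p = 0.375), and NRG2 had a log2 fold change of 0.20. ERBB4 did not pass 0.0236 scaled TPM, the ERBB3 ligand NRG1 did not pass 0.281, and HGF, the ligand of MET, was listed at 0 in all samples but vehicle replicate 3 (0.0343).

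Among 8 tested genes of ligand shedding and activation, 1 was lower in voom with the block, against 7.73% of all genes. The lower gene was ADAM10, a protease that releases betacellulin and EGF. It was at 61.8, 74.3 and 71.1 scaled TPM with vehicle and at 41.6, 61.8 and 52.2 with DOX. Its log2 fold change was -0.42 (limma adjusted p = 0.281 and 0.0204 in voom with the block), and -0.041 after GC and length correction of that fit. ADAM9, the most abundant protease of the list, had -0.30 (limma adjusted p = 0.328), and RHBDF2, which helps the protease ADAM17 mature, had 0.30 (adjusted p = 0.376).

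Of 11 tested adaptors and proximal effectors, 4 were lower in voom with the block, against 7.73% of all genes. SOS1, which loads RAS with GTP, was the only gene of the 6 lists past the fold change of 1.5 as well, at 18.9, 21.2 and 21.3 scaled TPM with vehicle and 9.70, 18.0 and 12.4 with DOX. The DOX samples lay below those of vehicle, replicate 2 only by a little. For SOS1 the log2 fold change was -0.62 (limma adjusted p = 0.280 and 0.0162 in voom with the block), and -0.38 after GC and length correction of that fit. The other genes that passed were SOS2, GAB1 and PTPN11, named after their values were seen. SHC1 (log2 fold change 0.14), STAT3 (0.18) and CRKL (0.22) did not pass, and the last of these was higher in every DOX sample.

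The list of receptor inhibitors, ubiquitin ligases, phosphatases and endocytosis genes had 16 tested members. In voom with the block, 3 of these were lower and 1 was higher, against 7.73% and 5.50% of all genes. SOCS4, which promotes degradation of EGFR, stood at a log2 fold change of -0.50 (adjusted p = 0.0146 in that fit). HGS, which sorts internalized receptors, stood at 0.42 (adjusted p = 0.0252), and PTPN1, a phosphatase acting on EGFR, at -0.13 (limma adjusted p = 0.612). USP8 and CBLB, which also passed as lower, are named after their values were seen. After GC and length correction of voom with the block, none of these genes had an adjusted p under 0.05.

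For the RAS-ERK kinases, 2 of 10 were lower and 1 higher in voom with the block, against 7.73% and 5.50% of all genes. BRAF (log2 fold change -0.40, adjusted p = 0.0256) was among the lower genes, and MAP2K2, which phosphorylates ERK, was higher (0.47, adjusted p = 0.0236). In the PI3K-AKT list, 2 of 8 were lower in that fit, against 7.73% of all genes. These 2 included the catalytic subunit PIK3CA (log2 fold change -0.48, adjusted p = 0.0166 in voom with the block). AKT1 (0.26, limma adjusted p = 0.392) and PIK3R2 (0.34, adjusted p = 0.343) did not pass. After GC and length correction of the voom fit with the block, BRAF stood at -0.16, MAP2K2 at 0.19 and PIK3CA at -0.14. Since RNA came from whole cultures, fewer cells of a type and less RNA per cell cannot be told apart for any of these genes.

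**Figure D4:**
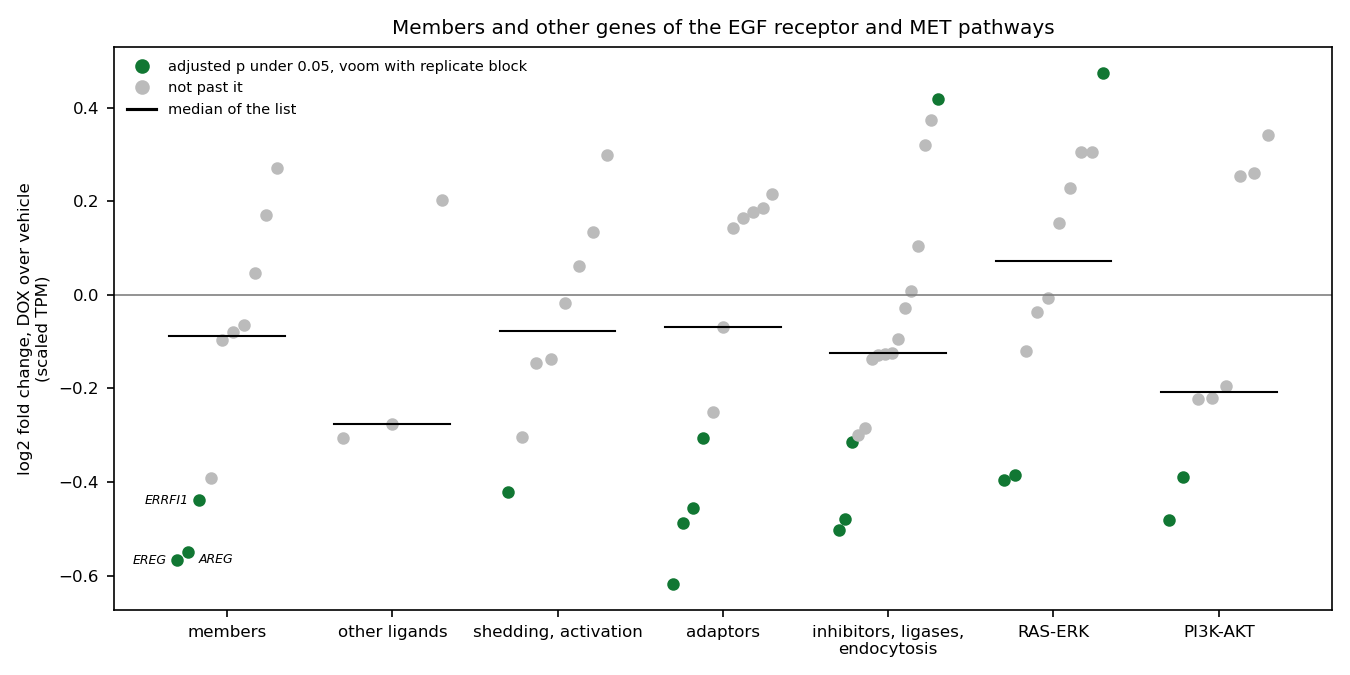
Log2 fold change of DOX over vehicle on scaled TPM (vertical axis) for the 10 members and the tested genes of the 6 pathway lists, sorted within each list, with a bar at the median of the list. Green points had an adjusted p under 0.05 in voom with the replicate block, and the members among them, EREG, AREG and ERRFI1, are named.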

How the data were processed

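RNA-seq of 3 vehicle-treated and 3 DOX-treated samples was analysed. Group and replicate number were read from the labels, and the duration (7 days) from the paper. The authors prepared stranded mRNA libraries, aligned reads with STAR to GRCh38 and deposited TPM for 25528 gene symbols; tool versions and the strand setting of the counting are not given in the sources used here. Each sample's TPM adds up to 1000000. The authors' table of DESeq2 results holds log2 fold changes, standard errors, Wald scores and p-values, which were not used, and a mean normalized count per gene, which was used to recover reads.

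TPM was divided by median-of-ratios factors from 15075 genes above 0 in all samples. Genes with a mean scaled TPM of at least 1 were tested (11595 genes) with limma (version 3.58.1, R 4.3.3) on log2(scaled TPM + 1), using its mean-variance trend and Benjamini-Hochberg adjustment, and called at an adjusted p under 0.05 with a fold change over 1.5. Of 22732 values of at most 20 reads, 99.0% came out whole within 0.05 of a read, against 10% by chance, and voom was run on these reads. GC content and length of the longest GENCODE 44 transcript, known for 93.0% of tested genes, were corrected by splines with 5 degrees of freedom per sample. Same-numbered samples of both groups deviated together, with correlations of 0.56, 0.26 and 0.19 across genes. The numbers were therefore treated as pairing in the fits with the replicate block, and the main limma fit had no block. What a number marks is not stated in the labels, and after GC and length correction the correlations were 0.18, 0.037 and 0.15. Fits and read recovery were tested on simulated data. Python 3.11.15, pandas 2.3.3, SciPy 1.17.1 and matplotlib 3.10.9 were used.

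The members and lists were chosen with earlier results of these data known. All members are named; from each pathway list, genes called in limma or in voom with the block, the 2 with the highest mean, those with the highest and lowest log2 fold change, and always EGF, NRG1, ERBB4 and HGF. Some genes that this rule names are not reported here. Alternatives were the deposited TPM, a pseudocount of 0.1, no expression minimum, the replicate block, voom, GC and length correction, and leaving out each sample.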

Additional observations from a re-analysis of the deposited data

How the results depend on the processing

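AREG, EREG, BTC and ERRFI1 kept a negative log2 fold change under all 22 alternatives tried, and the direction of the other members depended on the setting. On the deposited TPM, with or without the replicate block, ERBB2 was at -0.15, HBEGF at -0.35 and TGFA at -0.24. After GC and length correction of the limma fit, with or without the block, EGFR was at 0.017, HBEGF at -0.077 and MET at 0.048, and in the corrected voom fit with the block at 0.035, -0.11 and 0.077. With 1 sample left out, log2 fold changes on scaled TPM ran from -0.17 to 0.032 for ERBB3 (without DOX replicate 2), from -0.032 (without DOX replicate 3) to 0.10 for HBEGF and from -0.24 to 0.039 for MET (without DOX replicate 1). In voom with the block they ran from -0.23 to 0.025 for ERBB3, from -0.048 to 0.057 for HBEGF and from -0.22 to 0.0068 for MET, which was at 0.0011 without DOX replicate 1.

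The count of members called lower was 0 on scaled TPM, 3 on the deposited TPM and 4 there with the replicate block. At an adjusted p under 0.05 and any fold change, lower members numbered 3 on the deposited TPM, 7 there with the block (against 34.0% of all genes) and 3 in voom with the block, and with 1 sample left out of the last fit 0 to 3 were lower and 0 to 1 higher. The whole fit moved as much, from 0 genes lower and 0 higher without either sample of replicate 3 to 1782 lower and 1387 higher without vehicle replicate 2, and leaving out a sample also unpairs its partner. Without vehicle replicate 1, 3 genes passed as lower and 4 as higher, and without DOX replicate 1, 3 and 5. Called pathway genes numbered 1 lower on the deposited TPM, 19 there with the block (of 56, against 19.0% of all genes) and 1 in voom with the block (0 to 6 lower and 0 to 1 higher with 1 sample left out). At any fold change, 1, 30 (against 34.0% of all genes) and 12 were lower in these fits and 2 higher in the last, with 0 to 16 lower and 0 to 12 higher with 1 sample left out (11 higher without vehicle replicate 2). The replicate block on scaled TPM called 0 members (adjusted p = 0.0554 for AREG from limma) and changed no other call. Voom without the block gave 0 members and 0 pathway genes at an adjusted p under 0.05, in either direction. The share of TGFA among ligands was 4.41 percentage points higher with DOX, and 7.20 in recovered reads not divided by length. The cause of these changes was not tested. No member lay under the expression minimum, so the exact test planned for such members gave no value. Depth limits BTC most, with 68 reads in vehicle replicate 3.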
